A study of Rattus norvegicus with 28 samples.

Results

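Kidneys of 9 female Sprague-Dawley rats fed NK603 maize that had not been sprayed with Roundup were compared with kidneys of 10 female Sprague-Dawley rats fed the nearest isogenic, non-transgenic maize. NK603 is a maize line made tolerant to the herbicide glyphosate, the active ingredient of Roundup. In both groups maize made up 33% of the diet. These 19 arrays were all those whose label gave the unsprayed NK603 diet (group NK603) or the control diet (group control), out of 28 kidney arrays in the series. The other 9 arrays came from rats fed NK603 maize that was sprayed with Roundup during cultivation (group NK603+R). Each array stands for 1 animal. Some animals were killed early to spare suffering and the rest when the chronic feeding study closed, in each case at the same hour of the day by the methods. NK603 animals died at 393 to 737 days (median 715) and control animals at 540 to 737 days (median 725). NK603+R animals died at 554 to 737 days. RNA came from a transverse slice through the frozen kidney, so a slice can hold cortex, medulla, renal pelvis and attached tissue in varying shares. In such a bulk sample, fewer cells of a type and less RNA per cell cannot be told apart. Values are log2 RMA values of transcript clusters, the units that stand for a gene on a whole-transcript rat array, and every difference below is NK603 minus control on the log2 scale unless another is named.

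The kidney filters blood in the glomerulus and then recovers water, salts, glucose and amino acids along the nephron, first in the proximal tubule, then in the loop of Henle, the distal tubule and the collecting duct. Its tubules also export drugs and organic ions through pumps of the ABC family and carriers of the SLC family. Many tubular transporters follow the circadian clock, a loop in which the activators Bmal1, Clock and Npas2 switch on their own repressors of the Per, Cry and Rev-erb families. Ageing laboratory rats commonly develop a progressive kidney disease with tubular injury, fibrosis and infiltrating immune cells, which differs in extent from animal to animal.

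No transcript cluster passed the test between the NK603 and control groups. At a Benjamini-Hochberg adjusted p under 0.05 in limma, 0 of 36685 clusters were called (0%), and the smallest adjusted p was 0.13. An unadjusted p under 0.05 was reached by 2276 clusters. A looser selection, an unadjusted p under 0.01 with a fold over 1.1, held 421 clusters (1.15%), of which 178 were higher (0.485%) and 243 were lower (0.662%) in NK603. Their median absolute difference was 0.42, and 14 of them differed by more than 1. Among clusters with a single gene symbol the selection held 80 higher and 79 lower. No cluster separated the 9 NK603 animals from the 10 control animals (0%). In 27 clusters (0.0736%) 8 of the 9 NK603 animals lay beyond all controls on one side, and these included Cps1, Fbll1, Gmppa and Sult1c2al1. The genes described below are therefore the largest or most frequent differences by rule, and none of them is a call.

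Differences ran both ways with little common shift. The median difference over all clusters was 0.01, and 52.5% of clusters were higher in NK603. Animals of the NK603 group differed more from each other than controls did. The SD between animals had a median over clusters of 0.376 in NK603 and 0.244 in control, and 81.0% of clusters had the larger SD in NK603.

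That spread came with single arrays. Replicate 3 of NK603 had 10120 clusters (27.6%) more than 1 log2 unit from the median of its group and replicate 2 had 4791 (13.1%), against 569 to 1335 clusters in the other 7 NK603 animals and 294 to 1369 in the controls. The median ratio of these SDs, NK603 over control, was 1.51 with all arrays and 1.01 without NK603 replicates 2 and 3. Control replicate 10 held liver transcripts. Albumin (Alb) was 13.52 in that array, and all 14 hepatocyte genes measured lay above the median of the other controls there, by a median of 3.82. The mean level of that list ran from 5.41 to 5.97 in NK603 and from 5.42 to 9.14 in control. Umod, the urinary protein of the thick ascending limb, was 12.50 to 12.78 in NK603 and 12.60 to 12.84 in control, and the proximal phosphate carrier Slc34a1 was 11.62 to 12.33 in NK603 and 11.13 to 12.26 in control. Proximal, distal and intercalated cell markers were lower in control replicate 10 than in the other controls. This held for 13 of 14 proximal genes (median -0.62), 9 of 10 distal genes (median -0.61) and 11 of 11 intercalated cell genes (median -1.17). Ascending limb genes were lower as well, for 8 of 10 (median -0.20). Collecting duct principal cell markers went the other way there, with 6 of 10 genes higher (median 0.56).

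Cps1 showed the largest difference of the 35 genes named by rule. It encodes carbamoyl phosphate synthetase of the mitochondria, which in liver and intestine makes the first intermediate of the urea cycle. Its values were 5.14, 6.01, 6.12, 6.05, 5.47, 6.07, 6.45, 6.85 and 6.56 in NK603 replicates 1 to 9, against 7.84, 7.06, 6.63, 6.73, 8.37, 8.15, 7.77, 6.98, 7.61 and 9.58 in control replicates 1 to 10. Of the NK603 animals 8 lay below every control, and the remaining one, replicate 8, lay above the controls of replicates 3 and 4 only. NK603 animals averaged 6.08 (SD 0.53, n = 9) and control animals 7.67 (SD 0.90, n = 10). Cps1 was thus 3.01-fold lower in NK603 (difference -1.59, SE 0.32), and it was not called (limma adjusted p = 0.431). The highest control value belonged to replicate 10, the array with liver transcripts, and without it the difference was -1.38. Allowing for age at death gave -1.34, and in animals that reached 700 days it was -1.65.

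Other genes of its pathway lay closer to 0. Of 16 measured genes of the urea cycle and arginine metabolism, 7 were higher and 9 lower, with a median of -0.04 and Cps1 the only one at the looser selection. Arg1, the last enzyme of the cycle, differed by -0.40 (SE 0.31), and control replicate 10 was the highest animal for it at 7.60. Odc1, the first enzyme of polyamine synthesis, differed by -0.31. Smaller values were those of Agmat, an agmatinase-like enzyme, at 0.29 (SE 0.11), and Nags, which makes the cofactor that Cps1 needs, at -0.22. Agmat had a lowest, median and highest value of 9.10, 9.43 and 9.98 in NK603, against 8.90, 9.16 and 9.48 in control. Its groups overlapped, with 4 NK603 animals above all controls.

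The hepatocyte list holds Cps1 as well. Of its 14 genes 1 was higher and 13 were lower in NK603, with a median of -0.39. Without control replicate 10 the median was -0.01, with 7 higher and 7 lower, and Alb differed by -0.15 in place of -0.80. Rbp4, the plasma carrier of retinol, differed by -0.91 (SE 0.40) with all arrays and by -0.33 without the 3 arrays that stood apart.

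**Figure D1:**
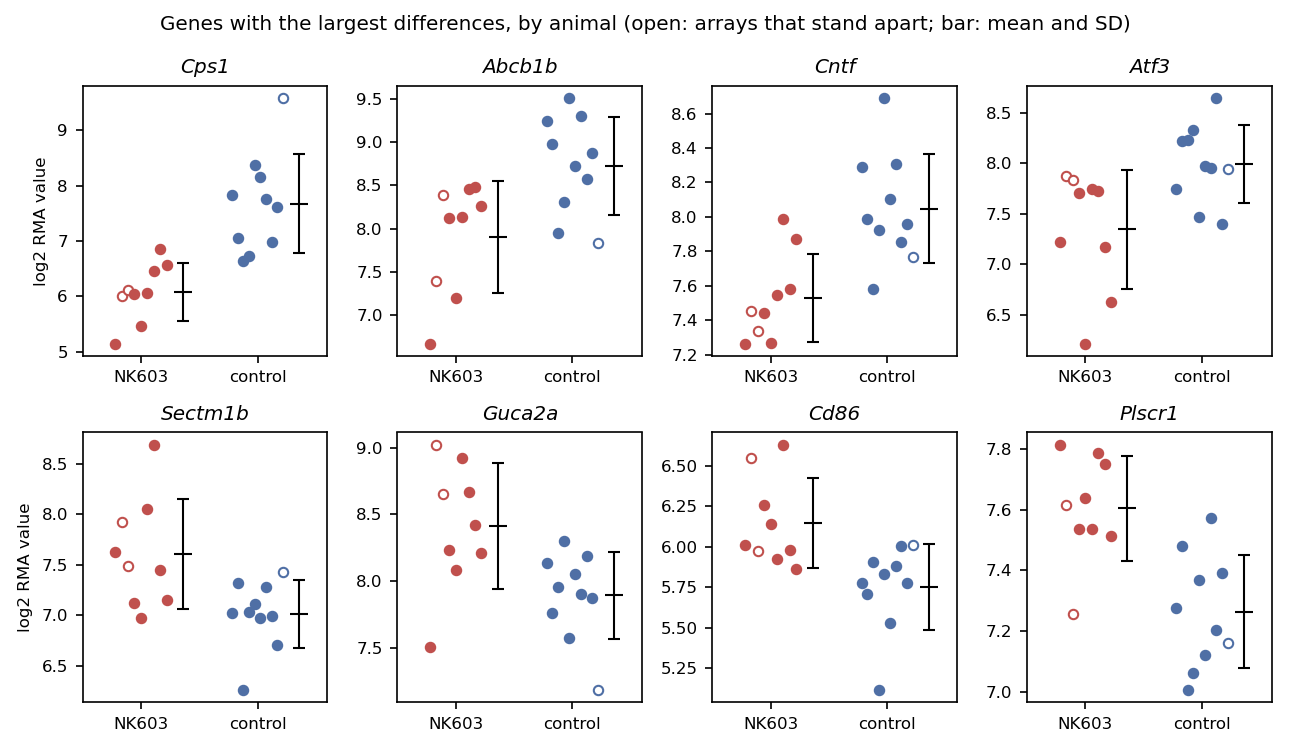
Log2 RMA values (vertical axes) of 8 genes in each NK603 animal (red, left) and each control animal (blue, right), with open symbols for NK603 replicates 2 and 3 and control replicate 10 and bars for the group mean and SD. For Cps1, 8 of 9 NK603 animals lie below all controls, and for the other genes 3 to 6 of 9 lie beyond all controls.

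Among the genes named from the looser selection, the second largest lower difference was in Abcb1b, one of the genes for P-glycoprotein, the pump that exports many drugs from tubule cells. Its lowest, median and highest values were 6.67, 8.14 and 8.48 in NK603, against 7.83, 8.80 and 9.50 in control. All 9 NK603 animals lay below the control mean, but only 3 lay below every control, among them replicates 1 and 5, which died at 421 and 465 days. Abcb1b was 1.77-fold lower in NK603, a difference of -0.83 with an SE of 0.26 (limma adjusted p = 0.792), which became -0.59 with age as a covariate. Its neighbour in the family, Abcb1a, which encodes the same kind of pump, differed by -0.43 (SE 0.17), with 5.11 to 6.45 in NK603 and 5.64 to 6.68 in control. Of 14 ABC pumps measured, 6 were higher and 8 lower, with a median of -0.06, and Abcb1b was the only member at the looser selection.

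Drug metabolism and oxidative defence lists lay near 0. Of 20 cytochrome P450 and other phase 1 enzymes 8 were higher and 12 lower (median -0.03), and of 16 conjugating enzymes 4 were higher and 12 lower (median -0.06). Of 16 targets of the antioxidant regulator Nrf2, 4 were higher and 12 lower (median -0.06), while of 16 antioxidant enzymes and metallothioneins 11 were higher and 5 lower (median 0.05). Sulfiredoxin (Srxn1), which restores oxidised peroxiredoxins, was the Nrf2 target with the smallest p, at 5.87 to 6.21 in NK603 and 6.05 to 6.53 in control, a difference of -0.21 (SE 0.08) with 9 of 9 NK603 animals below the control mean.

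All 20 immediate early genes were lower in NK603. They are transcribed within minutes of a stimulus, and their median difference was -0.27, against -0.02 over all genes that averaged at least 5 on the log2 scale. The stress-induced factor Atf3 was the only one at the looser selection. Its values were 7.22, 7.88, 7.83, 7.70, 6.22, 7.74, 7.73, 7.18 and 6.63 in NK603 replicates 1 to 9, against 7.75, 8.22, 8.23, 8.33, 7.47, 7.97, 7.96, 8.64, 7.40 and 7.95 in control replicates 1 to 10. All NK603 values lay below the control mean of 7.99, and 4 of them lay below every control. The difference was -0.64 (SE 0.21, limma adjusted p = 0.792). It was -0.59 with age as a covariate and -0.32 in animals of at least 700 days. Fos differed by -0.59 (SE 0.26), Egr1 by -0.48 (SE 0.20) and Egr2 by -0.35 (SE 0.13). Replicate 5 of NK603 was the lowest animal for Fos (6.25, next NK603 animal 7.51) and Egr1 (8.83, next 9.87), and 19 of the 20 genes lay below the median of the other NK603 animals there. In animals that reached 700 days Fos differed by -0.14 and Egr1 by -0.15. With age as a covariate Fos differed by -0.50 and Egr1 by -0.44, and the list had a median of -0.32 with 1 member higher and 19 lower. Without NK603 replicates 2 and 3 and control replicate 10 the list kept a median of -0.27, with 1 member higher and 19 lower.

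Genes of the p53 response, which checks damaged cells, leaned the same way. All 14 measured members were lower, with a median of -0.16, and Plk2 and Ccng1 were at the looser selection. Plk2, a stress-responsive kinase, had a lowest, median and highest value of 5.76, 6.58 and 7.07 in NK603, against 6.80, 7.06 and 7.32 in control. Of the NK603 animals 6 lay below all controls, and replicates 7, 8 and 9 lay inside the control range. The difference was -0.51 (SE 0.14, limma adjusted p = 0.792). Cyclin G1 (Ccng1) was 9.52 to 9.80 in NK603 and 9.57 to 10.09 in control, a difference of -0.24 (SE 0.08) with 9 of 9 NK603 animals below the control mean. The cell cycle inhibitor Cdkn1a differed by -0.32 (SE 0.14), and by -0.11 in animals of at least 700 days. Without NK603 replicates 2 and 3 the median of the list was -0.08 with 4 higher, without control replicate 10 as well it was -0.11 with 5 higher, and with age as a covariate it was -0.08 with 3 higher. The proliferation genes showed no common direction, with 8 of 24 higher and 16 lower (median -0.03).

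Clock genes differed in a subset of the NK603 animals. The repressor Nr1d1 (Rev-erb alpha) had the largest higher difference of the genes named from the looser selection and Cry1, a repressor of the core loop, was among the 4 largest lower ones. Nr1d1 stood at 8.21, 8.56, 9.41, 8.17, 9.97, 7.39, 9.24, 9.08 and 9.67 in NK603 replicates 1 to 9, against 7.76 to 8.24 in the 10 controls. Replicates 2, 3, 5, 7, 8 and 9 lay above all controls, replicates 1 and 4 lay among them and replicate 6 lay below them. NK603 animals averaged 8.85 (SD 0.83, n = 9) and control animals 8.01 (SD 0.19, n = 10). Nr1d1 was 1.80-fold higher in NK603, a difference of 0.84 with an SE of 0.25 (limma adjusted p = 0.792). Cry1 stood at 6.57, 6.56, 5.70, 6.93, 5.76, 6.93, 5.84, 5.88 and 5.66 in NK603 replicates 1 to 9, against 6.42 to 7.20 in the controls. The same 5 animals, replicates 3, 5, 7, 8 and 9, lay below every control and the other 4 lay inside the control range. Its difference was -0.64 (SE 0.18, limma adjusted p = 0.792). At least 5 of 9 NK603 animals lay above all controls in 2.24% of all clusters and below all controls in 2.23%.

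Of the other clock genes, Bmal1, Npas2, Dbp and Per3 had their 5 extreme NK603 values in the same animals. Bmal1, the activator that Rev-erb alpha represses, was 8.22, 7.87, 7.25, 8.20, 5.85, 8.12, 7.62, 7.54 and 7.13 in NK603 replicates 1 to 9, against 8.09 to 8.53 in control replicates 1 to 9 and 6.35 in control replicate 10. The 5 lowest NK603 animals were again replicates 3, 5, 7, 8 and 9. These animals also had the 5 lowest values of the activator Npas2 and the 5 highest values of the output factor Dbp and of Per3 among NK603 animals. Dbp ran from 9.09 to 10.35 in these 5 animals and from 7.71 to 8.46 in the other 4, against 8.06 to 8.58 in control replicates 1 to 9 and 9.66 in control replicate 10. Other members did not follow this division. The 5 lowest NK603 animals for Clock were replicates 2, 3, 5, 6 and 8, and the 5 highest were replicates 1, 4, 5, 6 and 8 for Per1 and Rora, 1, 4, 5, 6 and 9 for Per2 and 1, 5, 6, 8 and 9 for Cry2. Nfil3, which represses the targets of Dbp, was below all controls in replicates 5, 7, 8 and 9 and above all controls in replicate 3. Over the whole groups Bmal1 differed by -0.52 (SE 0.29), Dbp by 0.50 (SE 0.29), Per3 by 0.28, Nfil3 by -0.35 and Npas2 by -0.26, and none of these was at the looser selection. The list of 18 clock genes had 8 higher and 10 lower members and a median of -0.02. Ages at death of the 5 animals were 736, 465, 730, 639 and 737 days, against 421, 729, 393 and 715 days in replicates 1, 2, 4 and 6. Among the 9 NK603+R animals 4 lay above all controls for Nr1d1 and 3 lay below all controls for Cry1. Their replicates 2 and 4 combined Nr1d1 at 9.07 and 9.82 with Cry1 at 6.08 and 5.88 and Bmal1 at 7.21 and 7.32. Control replicate 10, low in Bmal1 and high in Dbp, had Nr1d1 at 8.23 and Cry1 at 6.90, inside the range of the other controls. The labels do not give the hour of death, and its part in these values was not tested.

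**Figure D2:**
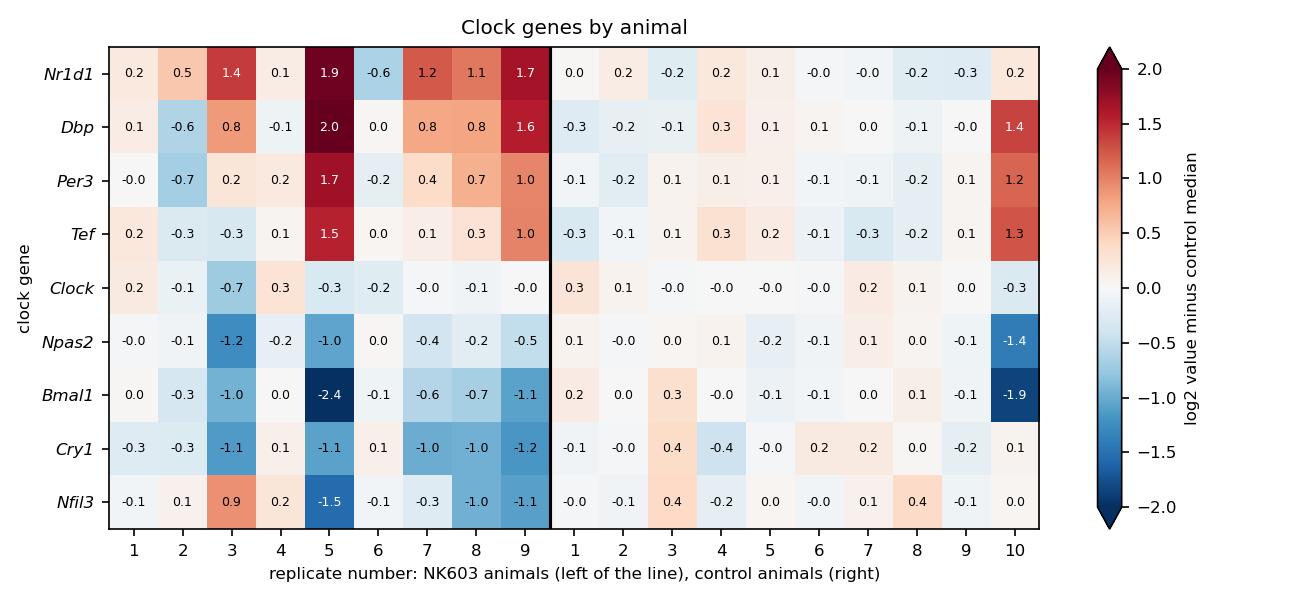
Log2 value minus the control median (colour and printed number) of 9 clock genes (rows) in NK603 replicates 1 to 9 (left of the line) and control replicates 1 to 10 (right). The rows are a selection from the 18 clock genes measured. Per1, Per2, Cry2 and Rora, which did not divide the NK603 animals in the same way, are not shown. Replicates 3, 5, 7, 8 and 9 of NK603 combine high Nr1d1 with low Bmal1 and low Cry1, and control replicate 10 has low Bmal1 without high Nr1d1 or low Cry1.

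The promoters of Nr1d1 and Bmal1 are shown because these genes are known to regulate each other. In NK603 replicates 2, 3, 5, 7, 8 and 9 Nr1d1 lay above all controls and Bmal1 below control replicates 1 to 9. The sequences cover 250 bases before to 50 bases after the transcript start in the RefSeq annotation of rat assembly GRCr8, 5′ to 3′ on the strand of the gene. Capitals mark the E-box CACGTG, the element bound by Bmal1 with Clock or Npas2, in Nr1d1 and the motif AGGTCA, part of the element bound by Rev-erb and Ror receptors, in Bmal1.
Nr1d1, chr10:84229405-84229704, minus strand: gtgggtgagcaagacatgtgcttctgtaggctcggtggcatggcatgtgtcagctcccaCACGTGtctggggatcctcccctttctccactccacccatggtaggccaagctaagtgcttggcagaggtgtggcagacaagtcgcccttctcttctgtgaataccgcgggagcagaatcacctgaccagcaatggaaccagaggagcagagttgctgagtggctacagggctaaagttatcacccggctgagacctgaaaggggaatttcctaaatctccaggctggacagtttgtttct
Bmal1, chr1:176766078-176766377, plus strand: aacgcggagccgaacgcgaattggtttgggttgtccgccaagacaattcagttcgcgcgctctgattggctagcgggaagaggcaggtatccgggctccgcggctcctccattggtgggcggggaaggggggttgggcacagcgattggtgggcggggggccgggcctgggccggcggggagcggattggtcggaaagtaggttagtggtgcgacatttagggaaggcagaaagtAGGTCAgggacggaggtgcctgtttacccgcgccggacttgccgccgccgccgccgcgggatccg
The Nr1d1 E-box began 191 bases before the start and the Bmal1 motif 15 bases before it. Both strands were searched for both motifs and for the D-box TTANGTAA, bound by Dbp, Tef and Nfil3, and none of the printed matches overlaps another. Among 16 clock genes with a promoter in the table the E-box was found in 5 (Bhlhe40, Bhlhe41, Ciart, Nr1d1 and Tef), the D-box in 1 (Per2) and AGGTCA in 1 (Bmal1). Over 33469 rat promoters of the same length the shares were 6.42% for the E-box, 2.24% for the D-box and 16.2% for AGGTCA. A second listed promoter of Nr1d1 held none of the 3 motifs. These matches describe letters and are not measured binding.

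Several signalling genes stood among the lower ones. Ciliary neurotrophic factor (Cntf), a survival factor of neurons and glia, was 7.26 to 7.99 in NK603 with a median of 7.45, against 7.58 to 8.69 in control with a median of 7.97. Of the NK603 animals 6 lay below all controls, and all 9 lay below the control mean. The difference was -0.52 (SE 0.13, limma adjusted p = 0.792) and ranged from -0.58 to -0.41 over the alternatives. Sonic hedgehog (Shh), a morphogen made by collecting duct and urothelium, was 4.37 to 5.39 in NK603 and 5.33 to 5.89 in control, with 7 NK603 animals below all controls and a difference of -0.48 (SE 0.13). Semaphorin 3D (Sema3d), a guidance cue, differed by -0.46 (SE 0.15), and by -0.24 without the 3 arrays that stood apart. The complement inhibitor Susd4 differed by -0.52 (SE 0.15), with NK603 replicate 3 lowest at 4.54 and the other NK603 animals at 5.16 to 5.85, against 5.49 to 6.44 in control.

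The rest of the 15 largest lower differences belonged to genes of mixed roles. They were the hair keratin Krt83 (-0.63), the ring finger protein Lonrf3 (-0.62), Ranbp3l (-0.53), the sodium iodide carrier Slc5a5 (-0.53), the A-Myb transcription factor Mybl1 (-0.51) and the fibrillarin relative Fbll1 (-0.50). NK603 replicate 2 was the lowest animal for Krt83 (3.52) and for Slc5a5 as well, and replicate 3 was the lowest for Lonrf3 (4.38), Ranbp3l (8.62) and Fbll1 (4.32). Without these arrays and control replicate 10 the differences were -0.34 for Krt83, -0.37 for Slc5a5, -0.51 for Lonrf3, -0.40 for Ranbp3l and -0.38 for Fbll1. Mybl1 was -0.51 with all arrays and -0.68 without the 3. Fbll1 was the most evenly displaced of these, with 5.04 to 5.44 in the 8 other NK603 animals, against 5.40 to 6.03 in control.

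Higher differences were smaller, and several were carried by the same NK603 animals. Sectm1b, a relative of human SECTM1, which binds a receptor on T and NK cells, was 7.63, 7.93, 7.49, 7.12, 6.97, 8.05, 8.69, 7.45 and 7.15 in NK603 replicates 1 to 9, against 6.26 to 7.43 in control. It was highest in replicates 7, 6 and 2 and lay inside the control range in replicates 4, 5 and 9. The difference was 0.59 (SE 0.20, limma adjusted p = 0.792). Guanylin (Guca2a), a peptide that raises salt excretion, was 7.50 to 9.02 in NK603 and 7.18 to 8.30 in control, again with replicates 2, 6 and 7 highest and replicate 1 lowest, a difference of 0.52 (SE 0.18). Dclk1, a microtubule-binding kinase, was 5.87 to 6.83 in NK603 and 5.77 to 6.25 in control, a difference of 0.37 (SE 0.11) with 7 NK603 animals above all controls.

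Kidney injury markers were high in those animals too. Havcr1, which encodes the injury marker Kim-1, was 10.24, 9.96 and 10.51 in NK603 replicates 2, 6 and 7 and 6.42 to 8.44 in the other 6 NK603 animals, against 7.13 to 10.19 in control. Lcn2 (lipocalin 2) was 9.48, 9.20 and 9.88 in the same replicates and 6.48 to 8.27 in the others, against 7.05 to 8.41 in control. Over the groups Havcr1 differed by -0.08 (SE 0.49) and Lcn2 by 0.35 (SE 0.37). With age as a covariate the difference was 0.51 for Havcr1 and 0.83 for Lcn2, and in animals of at least 700 days it was 0.67 for Havcr1 and 1.04 for Lcn2. Of 20 injury markers 10 were higher and 10 lower in NK603, with a median of 0.003, and with age as a covariate 17 were higher and the median was 0.20. The lowest Havcr1 values in NK603, 6.93 and 6.42, belonged to replicates 1 and 5, which died before 500 days. The part of tubular injury in the higher genes was not tested.

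Several immune lists had more members higher than lower, without a call. Cd86, the costimulatory molecule of antigen-presenting cells, was 5.86 to 6.63 in NK603 with a median of 6.01, against 5.12 to 6.01 in control with a median of 5.80. All 9 NK603 animals lay above the control mean and 5 of them lay above all controls, for a difference of 0.39 (SE 0.13, limma adjusted p = 0.792). The class II chain RT1-Ba differed by 0.38 (SE 0.15), with replicates 7 (9.06) and 6 (8.72) highest, and 11 of 18 genes of antigen presentation were higher (median 0.07). RT1-Bb differed by 1.02 (SE 0.55), at 5.95 to 10.26 in NK603 and 6.24 to 9.09 in control, a wide spread in both groups. Of 15 macrophage genes 13 were higher and 2 lower (median 0.09, highest in replicate 7), and all 15 were higher without the 3 arrays that stood apart (median 0.21). Of 16 T and NK cell genes 10 were higher (median 0.05), with the T cell receptor chain Cd3d at 0.42 (SE 0.15) and 8 of 9 NK603 animals above the control mean. Cytokines and chemokines were evenly split, with 12 of 24 higher and a median of -0.01, and Ccl4 (-0.28), Cxcl13 (-0.25) and Ccl3 (-0.18) among the lower ones. In that list the macrophage growth factor Il34, made by tubules, differed by 0.41 (SE 0.16), and replicates 7, 2 and 6 were highest.

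Matrix and complement genes ran with them. Of 21 matrix and fibrosis genes 18 were higher and 3 lower (median 0.07), and of 14 complement genes 9 were higher (median 0.09). The level of the matrix list was highest in NK603 replicate 7 and lowest in replicate 1. The terminal complement component C7 differed by 0.50 (SE 0.26), with 10.83 in replicate 7 and 10.75 in replicate 6 as the highest values, against at most 10.06 in control. Interferon response genes went the other way, with 2 of 21 higher and 19 lower (median -0.19). Replicate 3 of NK603 was lowest for that list and control replicate 3 was highest, and without NK603 replicates 2 and 3 and control replicate 10 the median was -0.04 with 8 higher. Plscr1, an interferon-inducible scramblase, was higher by 0.34 (SE 0.09), with a median of 7.62 in NK603 and 7.24 in control and 5 NK603 animals above all controls.

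The remaining higher genes were Plppr1 (0.54), Ccdc106 (0.46), the sialic acid-binding lectin Siglec8 (0.46), Tmem177 (0.46), the ADP-ribosyltransferase relative Art4 (0.43), Gprin3 (0.39), the diadenosine hydrolase Fhit (0.39), the sorting receptor Sorcs2 (0.37) and the small phosphatase Acp1 (0.35). All 9 NK603 animals lay above the control mean for Tmem177, Fhit, Sorcs2 and Acp1, and 7 or 8 did for the others. Sorcs2 was 6.88 to 7.45 in NK603 and 6.56 to 7.18 in control, with 5 NK603 animals above all controls. Acp1 was 5.05 to 5.59 in NK603 and 4.79 to 5.32 in control, with 6 NK603 animals above all controls. Ccdc106 moved most with the arrays and animals used, from 0.29 without the 3 arrays that stood apart to 0.82 in animals of at least 700 days.

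**Figure D3:**
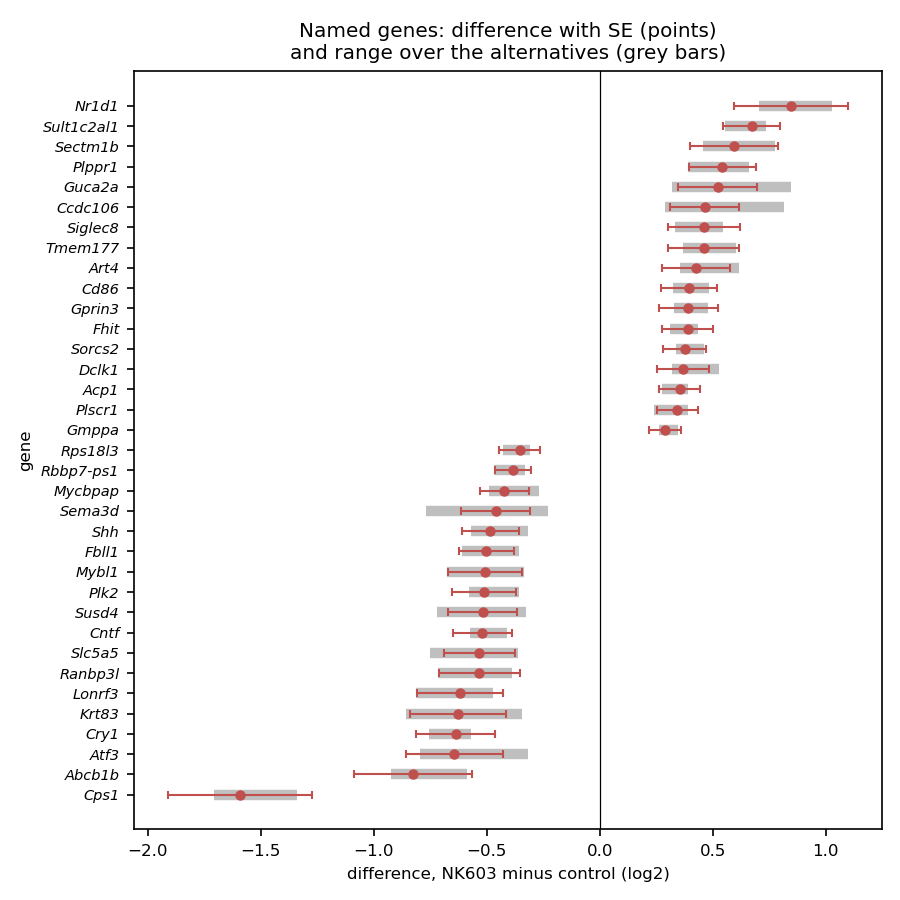
Difference between NK603 and control (horizontal axis, log2) of the 35 named genes, with points for the fit of 19 arrays, error bars for its SE and grey bars for the range over the alternative settings. All grey bars stay on the side of their point, with Sema3d (-0.77 to -0.23) and Ccdc106 (0.29 to 0.82) among the widest.

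Genes with the smallest p values were often of small difference. Sult1c2al1, a predicted sulfotransferase, was 3.55 to 4.56 in NK603 and 2.93 to 3.61 in control, with 8 of 9 NK603 animals above all controls and a difference of 0.67 (SE 0.13, limma adjusted p = 0.383). These values are near the lower end of the array's scale, where a probe signal can be mostly background. Gmppa, a regulator of GDP-mannose synthesis, was 7.51 to 7.94 in NK603 and 7.26 to 7.53 in control, with 8 of 9 NK603 animals above all controls and a difference of 0.29 (SE 0.07). Only replicate 3 at 7.51 lay inside the control range. Rbbp7-ps1 (-0.38, limma adjusted p = 0.565) and the ribosomal protein relative Rps18l3 (-0.35) are copies of other genes, whose transcripts the same probes may bind, and Mycbpap differed by -0.42.

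Nephron segments differed little. Of 14 proximal tubule genes 11 were higher (median 0.08), while all 10 genes of the ascending limb were lower (median -0.13), as were 7 of 10 of the distal tubule (median -0.14) and 8 of 10 of the collecting duct principal cells (median -0.07). Without the 3 arrays that stood apart the ascending limb median was -0.05 with 9 of 10 lower, the distal median was -0.22, and the principal cell list turned round, with 8 of 10 higher and a median of 0.05. Epidermal growth factor (Egf), secreted by the thick ascending limb and distal tubule, was 11.29 to 11.88 in NK603 and 11.61 to 11.99 in control, a difference of -0.19 (SE 0.08) with 8 of 9 NK603 animals below the control mean. The urea carriers Slc14a1 and Slc14a2, which concentrate urea in the medulla, differed by -0.50 (SE 0.22) and -0.49 (SE 0.32). Both were lowest in NK603 replicate 3, and without the 3 arrays that stood apart they differed by -0.18 and -0.04. Atp6ap2, the prorenin receptor, differed by -0.20 (SE 0.08), and 8 of 9 NK603 animals lay below all controls, with replicate 4 near the top of the control range at 10.40. Podocyte genes had a median of -0.02 and intercalated cell genes one of 0.02.

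Amino acid handling leaned higher, to an extent that varied with the setting. Of 25 genes 17 were higher (median 0.06), and 20 were without the 3 arrays that stood apart. Without control replicate 10 alone 13 were higher and 12 lower. With age as a covariate 14 were higher and 11 lower (median 0.01). Slc7a7, which exports cationic amino acids from proximal cells, was 7.77 to 8.98 in NK603 and 7.02 to 8.88 in control, a difference of 0.53 (SE 0.22) with overlapping groups. The peptidase Dpep1 differed by 0.28 (SE 0.13) and the branched-chain dehydrogenase subunit Bckdha by 0.27 (SE 0.12). In fatty acid oxidation 11 of 22 genes were higher, and 19 of 22 without the 3 arrays that stood apart (median 0.06). With age as a covariate 9 of these genes were higher and 13 lower (median -0.03). Ech1, an isomerase of that pathway, was at the looser selection with 9.09 to 9.44 in NK603 and 8.65 to 9.27 in control, a difference of 0.27 (SE 0.09). The desaturase Scd had the second largest difference of the list genes, -1.49 (SE 0.53). Its values were 5.28 to 7.48 in NK603 with a median of 5.90, against 5.83 to 10.40 in control with a median of 6.97. Control replicates 10, 9, 5 and 4 were highest (10.40, 9.22, 8.96 and 7.84), and the NK603 animals overlapped the lower controls. The other genes of cholesterol and lipid synthesis lay between -0.30 (Me1) and 0.19 (Insig1).

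Tissue at the edge of the kidney differed between slices. All 13 urothelial genes were lower in NK603 (median -0.32, and -0.19 without the 3 arrays that stood apart, with 1 higher). The keratins Krt19 (-0.45, SE 0.20) and Krt15 (-0.56, SE 0.28) and the transcription factor Grhl3 (-0.43, SE 0.19) had the smallest p values of the list, and Sprr1a differed by -0.59 (SE 0.44) and Upk1a by -0.47 (SE 0.30) with larger errors. Its mean level ran from 5.74 (replicate 1) to 6.93 (replicate 8) in NK603 and from 5.92 (replicate 1) to 7.11 (replicate 3) in control. All 13 adipocyte genes were lower (median -0.13), with the level of control replicate 10 highest at 7.63, and without the 3 arrays that stood apart 6 were higher and 7 lower (median -0.05). The adipokine Retn differed by -0.49 (SE 0.19) and the lipid carrier Fabp4 by -0.58 (SE 0.34), and Fabp4 by -0.26 without those arrays. The part of such tissue in the other differences was not tested.

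Erythroid genes were the only list with all members higher. The 6 genes had a median of 0.32, and -0.05 with age as a covariate. The haemoglobin chaperone Ahsp was 5.45, 7.45 and 7.44 in NK603 replicates 1, 4 and 5, which died at 421, 393 and 465 days, and 3.33 to 4.09 in the other 6 NK603 animals, against 3.28 to 4.97 in control. No control animal died before 500 days. The chain Hba-a1 was highest in the same 3 NK603 animals, up to 7.25 in replicate 4, and control replicate 10 was higher still at 7.51. Erythropoietin (Epo), the kidney hormone that drives red cell formation, was 7.42 in replicate 4 and 5.19 to 6.08 in the other 8 NK603 animals, against 4.96 to 5.72 in control. In animals of at least 700 days Ahsp differed by -0.21 and Epo by 0.16. Age and diet cannot be told apart for ages below 500 days. Age at death averaged 618 days with an SD of 148 in the 9 NK603 animals and 701 days with an SD of 62.4 in the 10 control animals, a difference of -82.6 days that did not pass an exact permutation test (two-sided, p = 0.13).

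**Figure D4:**
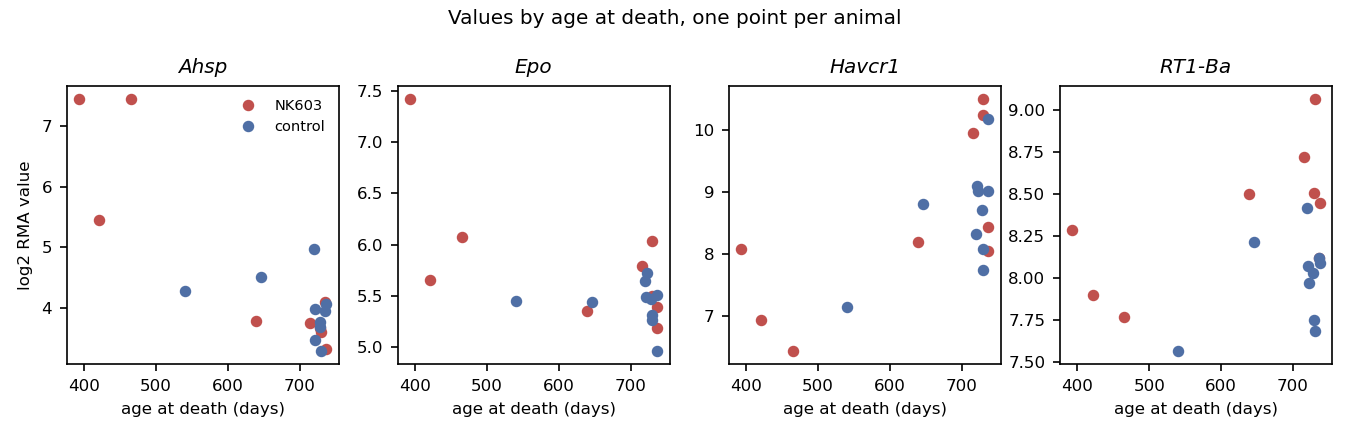
Log2 RMA values (vertical axes) of 4 genes against age at death in days (horizontal axes), 1 point per NK603 animal (red) or control animal (blue). High Ahsp is seen in the 3 NK603 animals that died before 500 days, and the highest Havcr1 and RT1-Ba values belong to NK603 replicate 7, which died after 700 days.

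Energy metabolism, stress and hormone lists lay near 0. Of 21 genes of the mitochondrial respiratory chain 5 were higher and 16 lower (median -0.04), and of 16 glycolysis and gluconeogenesis genes 6 were higher and 10 lower (median -0.03). Of 20 genes of the unfolded protein response 4 were higher (median -0.04), and 15 were higher without the 3 arrays that stood apart (median 0.06). Of 15 heat shock genes 3 were higher (median -0.13), with NK603 replicate 3 lowest. Of 19 genes of steroid and prolactin signalling 10 were higher (median 0.01), and of 13 of the renin system 7 were (median 0.01). Salt carriers (5 of 17 higher, median -0.05), genes of calcium, magnesium and phosphate handling (9 of 21, median -0.01) and organic ion transporters (7 of 13, median 0.05) were split in a like way. Markers of endothelium (4 of 10 higher, median -0.01), fibroblasts (5 of 9, median 0.01), smooth muscle and mesangium (6 of 9, median 0.02), B and plasma cells (5 of 9, median 0.11), neutrophils and mast cells (7 of 11, median 0.02), nerve (2 of 10, median -0.11), skeletal muscle (1 of 8, median -0.11) and adrenal cortex (6 of 10, median 0.09) completed the cell types.

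Across the 50 lists the medians lay between -0.39 (hepatocytes) and 0.32 (erythroid cells), and 36 of them were within 0.1 of 0. All members were lower in 5 lists and higher in 1. Over all 18166 genes 49.5% were higher with a median of -0.001, and over genes with a mean of at least 5 it was 42.7% with a median of -0.02. Of 711 list members 9 were at the looser selection (1.27%), against 0.842% of all genes and 0.917% of genes with a mean of at least 5, and none was called. Without NK603 replicates 2 and 3 and control replicate 10 the median changed sign in 14 of the 50 lists.

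**Figure D5:**
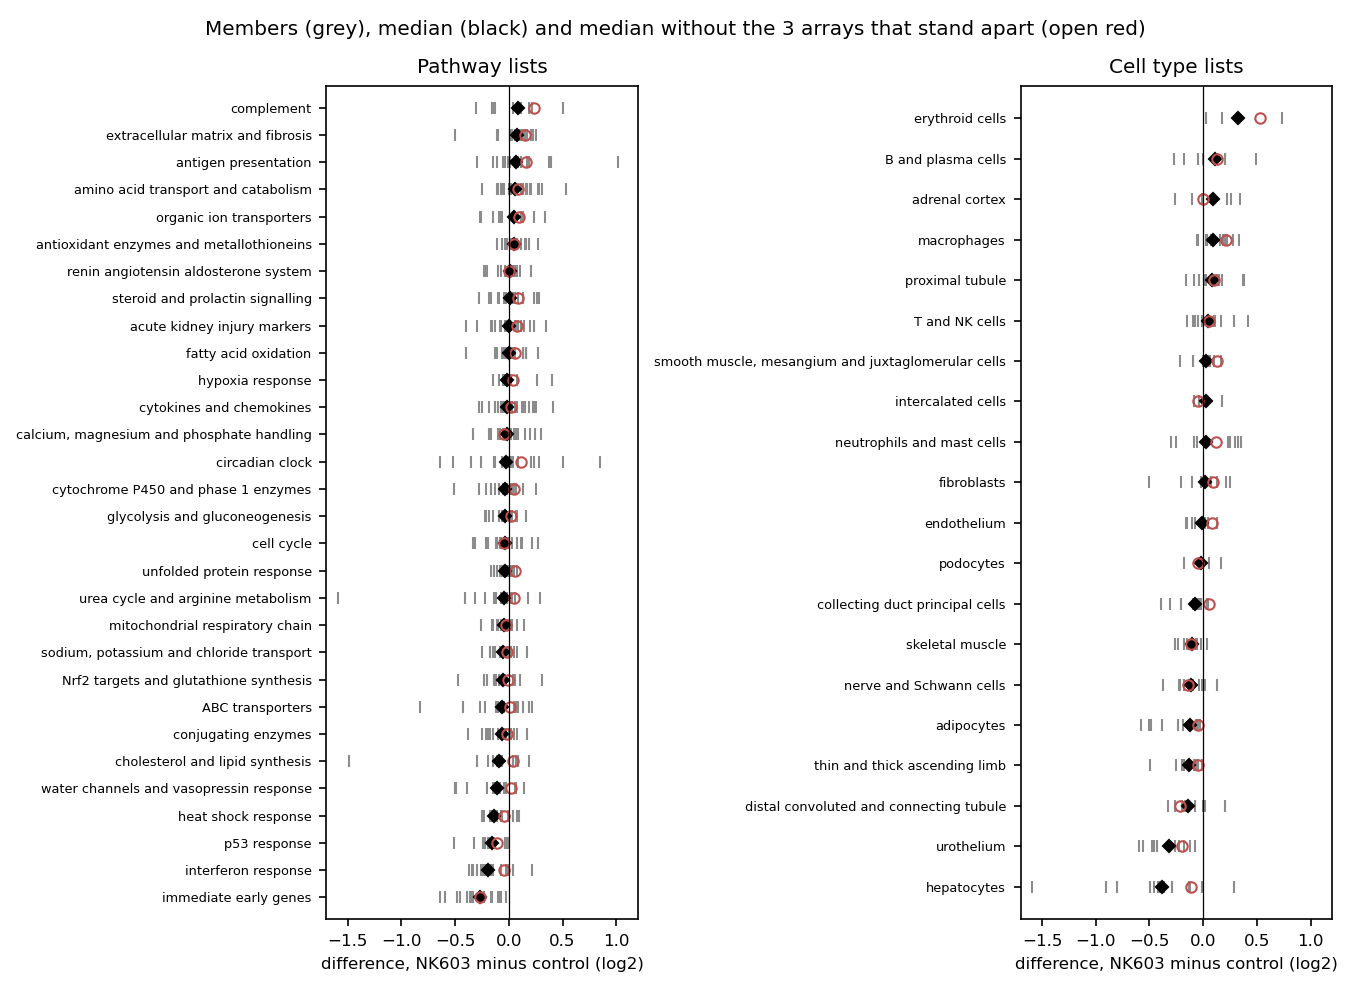
Differences between NK603 and control (horizontal axes, log2) of the measured members of 30 pathway lists (left) and 20 cell type lists (right), with grey marks for members, black diamonds for the median and open red circles for the median without the 3 arrays that stood apart. Most medians lie within 0.1 of 0, with hepatocytes (-0.39), urothelium (-0.32) and immediate early genes (-0.27) lowest and erythroid cells (0.32) highest.

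The arrays of NK603 replicates 2 and 3 stood apart from their group. Akr1c14, a steroid reductase, was among the 12 genes farthest above the group median in both, at 9.27 in replicate 2 and 10.11 in replicate 3. It was not particular to them, as another NK603 animal reached 9.35, above replicate 2. Controls reached 8.83. In replicate 2, markers of injury were high and genes of the proximal tubule and of amino acid handling were low. Its injury list lay above the median of the other NK603 animals for 19 of 20 genes (by a median of 0.52), and its proximal tubule list lay below for 14 of 14 (-0.49) and its amino acid list for 23 of 25. Its distal tubule list lay above that median for 8 of 10 genes (0.37). Single genes far from the group were Pdk4 (9.86, other NK603 animals 8.34 or below) and Angptl4 (7.76, others 7.19 or below), both induced in fasting, the uroguanylin gene Guca2b (8.43, others 7.47 or below), and Cyp1a1 (5.53, others 5.65 or above), the dioxin-inducible enzyme. Replicate 3 had the most distant genes of any array. Its high genes included the water channel Aqp5 (7.15, others 5.85 or below) and the mucosal peptide Tff3 (10.07, others 9.50 or below). Its low genes included the telomere-binding factor Terf1 (4.84, others 7.18 or above), the kinase Cdk11b (4.39, median of the others 6.83) and the prostaglandin receptor Ptger1 (5.25, others 7.15 or above). The interferon list lay below the median of the others for 19 of 21 genes (-0.82) there.

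NK603 animals were also set against NK603+R animals, whose maize came from the sprayed crop. No cluster was called (0%), the smallest adjusted p was 0.0745, 1508 clusters had an unadjusted p under 0.05 and 207 clusters were at the looser selection (0.564%). For Cps1 the means were 6.08 in NK603 and 6.14 in NK603+R, a difference of -0.07 (SE 0.23, limma adjusted p = 0.981). Cntf averaged 7.53 in NK603 and 7.44 in NK603+R, Abcb1b 7.90 in NK603 and 7.74 in NK603+R, and Acp1 5.36 in both. Cd86 averaged 6.15 in NK603 and 5.66 in NK603+R (difference 0.49), Susd4 5.45 in NK603 and 5.91 in NK603+R (-0.47), and Sectm1b 7.61 in NK603 and 7.14 in NK603+R (0.47). For the 35 named genes the adjusted p of this difference ran from 0.944 to 0.999. Both diets share the control animals, so the distances of NK603 and NK603+R from control are not independent of each other. No NK603+R animal died before 554 days, while NK603 replicates 1, 4 and 5 died at 421, 393 and 465 days. Age at death was not a covariate in the fit of NK603 against NK603+R.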

How the data were processed

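RNA of kidney slices was labelled and hybridised to whole-transcript rat arrays, 1 array per animal. The values are log2 expression values that the authors made with RMA and deposited, background-corrected and quantile-normalised over the arrays together. The submitters' processing notes name Affymetrix Expression Console and RMA, with no version. No counts exist for arrays, so the number of arrays limits the precision. The labels give no scan date or batch.

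Groups came from the experimental group label. A total of 36685 transcript clusters was tested, of which 18511 carried 1 gene symbol in the platform annotation, 575 several and 17599 none. Only clusters with 1 symbol were named, and 18394 of these matched the RefSeq annotation of GRCr8. A linear model was fitted to the 19 NK603 and control arrays with limma 3.58.1 (R 4.3.3) and empirical Bayes, with Benjamini-Hochberg adjustment over all clusters and a threshold of 0.05. The comparison of NK603 with NK603+R used the same model on those 18 arrays. Named genes were the 15 largest higher and 15 largest lower differences among 1-symbol clusters that met the looser selection and averaged at least 5 on the log2 scale, the 10 smallest p, up to 4 members of each described list by smallest p, and the 12 genes farthest above and below the rest of the group in 3 arrays. Provisional symbols, chemosensory receptors and small RNAs were left out. Other genes, such as further clock, injury and list genes, were chosen after their values were seen. The members and lists were chosen with earlier results of these data known. Where a gene had several clusters, the one with the highest mean was used. Summaries were made with Python 3.11.15 and pandas 2.3.3, and the model was tested on simulated data. Alternatives were a fit without single or several arrays, the replicate number as a block, age at death as a covariate, animals of at least 700 days, all 28 arrays, array weights, other scalings, a filter on low values, a trended robust fit and a plain t-test.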

Additional observations from a re-analysis of the deposited data

Results flagged for a closer look

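Dixon's test at the 95% level was applied to the highest and lowest animal of each group for 78 genes and for age at death, 158 groups in all. It marked 18 values, several of them in the same animal. Chance alone marks about 1 in 20 groups when genes are picked without regard to their values. The genes here were named by rule or chosen after their values were seen, and they are not independent of each other. The 18 marks can therefore not be set against that rate.

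Control replicate 10 was marked most often. It was the lowest control for Bmal1 (6.35) and Npas2 (7.05) and the highest for Dbp (9.66), Per3 (7.996) and Tef (8.19), all genes of the clock. It was also the highest control for the plasma protein gene Rbp4 (11.002), the adipocyte gene Fabp4 (8.72) and the haemoglobin gene Hba-a1 (7.51). Liver transcripts were high in the same array, and their part in these values was not tested.

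NK603 replicate 5, which died at 465 days, was the lowest NK603 animal for Bmal1 (5.85), Fos (6.25) and Egr1 (8.83). Other marked NK603 animals were replicate 4 for Epo (highest, 7.42), replicate 3 for Fbll1 (lowest, 4.32), replicate 2 for Krt83 (lowest, 3.52), replicate 1 for Scd (highest, 7.48) and replicate 7 for Siglec8 (highest, 6.34). Among controls, replicate 4 was marked for Fbll1 (highest, 6.03) and replicate 3 for the youngest age at death (540 days).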

How the results depend on the processing

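No cluster was called without NK603 replicates 2 and 3, without control replicate 10, with all 28 arrays, with array weights or with other scalings and filters, while age at death as a covariate gave 2 calls and animals of at least 700 days gave 1, all without a gene symbol. Leaving out 1 animal gave 0 to 2 calls (1 without NK603 replicate 7 and 2 without control replicate 1), and 312 to 605 clusters at the looser selection. The same 2 clusters were called with age as a covariate and without control replicate 1. Their differences were equal to each other, at 1.23 and 1.22 in these fits, and so were their adjusted p values. They may therefore be 1 measurement listed under 2 clusters. That selection held 421 clusters with all arrays, 744 without NK603 replicates 2 and 3 (233 shared), 757 without these and control replicate 10 (214 shared), 983 with age as a covariate, 1042 in animals of at least 700 days and 725 with array weights. Of the selected clusters 42.3% were higher with all arrays, 58.7% after median centring of the arrays, 32.1% with a mean of at least 5, 51.8% with age as a covariate and 51.6% at 700 days or more. The ratio of SDs was 1.01 without NK603 replicates 2 and 3 and 1.05 without all 3 arrays. Of 36685 clusters, those whose groups did not overlap numbered 0 with all arrays and 12 without NK603 replicates 2 and 3. They numbered 2 without control replicate 10 and 18 without all 3. Smaller groups overlap less often, so these counts cannot be compared with the 0 of all arrays. The age difference lay between -100 and -54.4 days when 1 animal was left out.

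A plain t-test on the same values called 0 clusters after adjustment. The numbers of the replicates name animals and do not pair them. With a replicate block 0 clusters were called and 325 were at the looser selection, the correlation of same-numbered deviations lay between -0.157 and 0.135, and no NK603 animal correlated best with its own number. All 35 named genes kept their direction in 1119 alternative values, none called, with adjusted p between 0.195 and 0.883. These genes were picked from the same values and the fits share arrays, so a kept direction is not separate evidence. Of 200 alternative list medians 192 moved by less than the SD of the differences among the genes of the list. The causes of these shifts were not tested, and 9 and 10 animals limit the size of difference that can be called.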
